A study of Mus musculus with 6 samples.

Results

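Imprinted genes are expressed mainly from the allele of one parent, and the 10 genes described here, Igf2r, Meg3, Rian, Cdkn1c, Grb10, Phlda2, Qpct, Cd81, Gatm and H13, are known in mouse as genes expressed mainly or in some tissues from the maternal allele. They were chosen by name, and each was read from the probe sets (groups of array probes for a transcript) that the platform annotation gives only that gene symbol. All 10 were on the array, with 31 probe sets of 34945 that have 1 symbol, and stood among 18193 genes. A gene is represented by its probe set with the highest mean over 6 arrays, and the other probe sets are given where they differ. No probe set was left out for a low value.

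RNA of embryonic stem (ES) cells, which are pluripotent, was hybridised to Affymetrix mouse GeneChip arrays, with 1 array per sample. The 3 haploid samples are the lines HAP1 (passage 24) and HAP2 (passage 21), both of F1 CBAxB6 strain, and HTG1 (passage 11), labelled as mixed transgenic. The 3 diploid controls were labelled male, replicates 1 and 2 of strain 129Sv and replicate 3 of strain 129, with no passage in the labels. All 6 samples were grown in 2i medium, which inhibits the kinases MEK and GSK3, and RNA was taken on day 2 after passaging. Strain and ploidy differ together between the groups, as does the sex label, so their parts in any difference cannot be told apart. The transgene of HTG1 is not named in the labels, and HTG1 is 1 line. HTG1 differs from HAP1 and HAP2 in strain label, transgene and passage together, so the parts of these cannot be told apart either. The design names biological triplicates, but the titles do not say whether the diploid arrays came from separate lines, so p-values measure only the spread between these samples. The labels do not say which parent gave the haploid genomes. From what is known of the study, the haploid lines were derived from activated unfertilised eggs, whose genome is maternal.

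Parent-specific expression is set by DNA methylation at imprinting control regions, which is laid down in the germ line and kept through cell division. At several of these loci a long noncoding RNA made from the paternal allele silences neighbouring genes on its own chromosome: Airn acts on Igf2r, and Kcnq1ot1 acts on Cdkn1c, Phlda2 and Cd81. Meg3 and Rian are themselves noncoding RNAs, made from the maternal allele of the locus where the paternal allele makes Dlk1. Many maternally expressed genes restrain growth, and in cultured ES cells imprinted genes are known to vary from line to line.

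All 12 fixed ES cell markers were on the array and none lay under the lower quartile of the arrays in its mean over the 6 arrays. The log2 of their summed level was 16.8 on each diploid array and 16.9 to 17.0 on the haploid arrays. In the 3 haploid against the 3 diploid arrays, 3 of 12 passed as higher (Klf4, Nanog and Pou5f1) and none as lower by limma. Among all genes 7.92% passed as higher and 6.96% as lower there. In HAP1 and HAP2 against diploid arrays 2 of the 12 passed as higher and 1 as lower, beside 6.11% and 4.87% of all genes. The median of all probe sets was 6.31 to 6.34 (log2) on the 6 arrays, whose small number limits the precision. Diploid replicates 2 and 3 were the closest pair (Pearson's r across genes 0.996), while diploid replicate 1 correlated with them at 0.991. Of 13 measured fibroblast markers, 2 were lower in the haploid lines and none higher by limma, and the log2 of their summed level was 11.1 in diploid replicate 1, 10.39 to 10.45 in the other diploid arrays and 9.65 to 9.87 in the haploid lines. Primitive endoderm markers (10 measured) summed to 10.3 to 10.4 in the diploid and 9.67 to 10.1 in the haploid lines, with 2 lower (Hnf4a and Lama1) and none higher by limma. Of these marker calls, those of Nanog, Pou5f1, Hnf4a and Lama1 ended when diploid replicate 2, diploid replicate 3 or HAP2 was omitted. Their limma adjusted p was then 0.0621 to 0.121. Other changes ended some of these calls too. Pou5f1 did not pass without HAP1 (0.0503) or HTG1 (0.0624), or with chromosome shifts subtracted (0.0544). Hnf4a did not pass without diploid replicate 1 (0.0549) or HAP1 (0.0567), or without probe sets whose names end in _s_at or _x_at. Lama1 did not pass without diploid replicate 1 (0.0842), nor Nanog without HTG1 (0.0522). None of 9 measured trophoblast markers passed in haploid against diploid lines, but 1 passed as higher in HAP1 and HAP2 against diploid arrays. These 9 markers summed to 10.8 to 11.3 in the diploid and 11.1 to 11.7 in the haploid lines. Fewer cells of another type and less RNA per cell cannot be told apart in such bulk samples, and the part of other cell types in the results was not tested.

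Since methylation falls on the C of CpG dinucleotides, the 250 bases before the start of 4 members are shown with every CpG in capitals. They are 1 member that passed in every comparison with diploid (Cd81), its neighbour Phlda2, the member with the widest spread among the diploid arrays (Grb10), and Meg3, whose probe sets disagreed. The sequences are from RefSeq, build GRCm38.p6, read 5′ to 3′ on the strand of the gene: Cd81 at chr7:143052500-143052749 (plus strand), Phlda2 at chr7:143502525-143502774 (minus strand), Grb10 at chr11:12037421-12037670 (minus strand) and Meg3 at chr12:109540746-109540995 (plus strand).
Cd81: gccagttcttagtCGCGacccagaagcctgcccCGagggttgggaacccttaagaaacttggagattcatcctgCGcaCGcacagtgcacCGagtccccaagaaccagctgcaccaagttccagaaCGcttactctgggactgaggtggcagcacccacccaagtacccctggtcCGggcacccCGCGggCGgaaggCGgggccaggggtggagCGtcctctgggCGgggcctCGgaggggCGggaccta
Phlda2: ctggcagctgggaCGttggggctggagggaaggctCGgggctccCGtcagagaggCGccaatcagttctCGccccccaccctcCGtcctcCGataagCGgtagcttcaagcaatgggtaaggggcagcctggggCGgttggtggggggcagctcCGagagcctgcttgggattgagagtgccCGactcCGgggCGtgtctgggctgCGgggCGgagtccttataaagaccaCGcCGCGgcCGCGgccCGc
Grb10: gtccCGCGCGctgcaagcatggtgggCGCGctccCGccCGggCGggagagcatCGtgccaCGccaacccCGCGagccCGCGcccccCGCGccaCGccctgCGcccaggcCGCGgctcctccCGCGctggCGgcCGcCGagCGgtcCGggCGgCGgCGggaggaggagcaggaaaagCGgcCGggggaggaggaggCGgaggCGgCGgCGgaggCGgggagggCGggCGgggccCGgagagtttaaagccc
Meg3: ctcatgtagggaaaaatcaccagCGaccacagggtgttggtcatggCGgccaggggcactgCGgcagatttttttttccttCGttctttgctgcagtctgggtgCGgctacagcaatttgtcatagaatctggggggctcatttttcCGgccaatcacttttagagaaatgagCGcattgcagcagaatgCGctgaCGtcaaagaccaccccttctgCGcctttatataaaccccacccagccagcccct
These windows hold 16, 21, 40 and 10 CpG. Of 32851 windows of this length in the RefSeq table, 25.4% hold at least as many CpG as that of Cd81, 16.3% as that of Phlda2, 1.31% as that of Grb10 and 37.8% as that of Meg3. A second start of Grb10 (chr11:12027972-12028221, minus strand) had 8, a second start of Meg3 had 0, and the window of Rian had 0. Windows were found for 8 of the 10 members, with 10 windows in all. The letters TGCCGC, the known motif of the imprint-protecting factor Zfp57, were searched on both strands with no overlap with another motif searched. They occur in 1 of the 10 windows, that of the first Meg3 start, and in 8.68% of all windows. Methylation was not measured here.

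Qpct and Cd81 were the 2 of 10 members that passed in the comparison of the 3 haploid with the 3 diploid samples. These groups shared a medium but differed in ploidy, strain and sex label together. Both genes were higher in the haploid lines, and each was read from 1 probe set, with no other to compare. Genes passed at a limma adjusted p under 0.05 over all 18193 genes, where limma called 14.9% of genes, so the count among the members is close to that of all genes. Higher calls made up 7.92% and lower calls 6.96% of all genes. The median difference of the 10 members was 0.45 (log2, haploid minus diploid), with 9 of 10 above 0, against -0.029 over all genes, of which 45.8% were above 0. Without diploid replicate 1 the members' median was 0.18, with 6 of 10 above 0, beside 47.7% of all genes. The members were chosen with earlier results known, so these counts are a description.

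Qpct encodes glutaminyl cyclase, which turns the N-terminal glutamine of peptides into pyroglutamate. Its log2 values were 7.20, 7.39 and 7.48 in diploid replicates 1 to 3 and 8.68, 9.29 and 9.12 in HAP1, HAP2 and HTG1. The groups did not overlap, and the lowest haploid line lay well above the highest diploid array. The haploid mean was higher by 1.67 ± 0.17 (log2, SE, n = 3 per group), or 3.18-fold (limma adjusted p = 0.00288). Qpct was 3.09-fold higher in HAP1 and HAP2 (limma adjusted p = 0.00831) and 3.38-fold higher in HTG1 (0.0162). Without diploid replicate 2 or 3 the HTG1 difference was 1.77 or 1.82 (log2) and its limma adjusted p 0.0567 or 0.0630.

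Cd81 encodes a tetraspanin, a membrane protein that organises receptors and adhesion molecules at the cell surface. Its diploid log2 values were 12.79, 12.68 and 12.76, and those of HAP1, HAP2 and HTG1 were 13.27, 13.46 and 13.52. Both groups were tight and apart from each other. The difference was 0.67 ± 0.10 (log2, SE, n = 3 per group), or 1.60-fold (limma adjusted p = 0.00787). In HAP1 and HAP2 it was 1.54-fold (limma adjusted p = 0.0221) and in HTG1 1.71-fold (0.0285). By line, its limma adjusted p for HAP1 and HAP2 missed the threshold when diploid replicate 2 (0.0825), diploid replicate 3 (0.0900) or HAP2 (0.114) was omitted. For HTG1 it did so when diploid replicate 2 (0.0878) or 3 (0.0982) was omitted. Values that do not overlap between the groups were found for these 2 members, both higher, and for 37.9% of all genes, 17.7% higher and 20.2% lower. Over the 6 arrays Qpct and Cd81 correlated at 0.98 (Pearson's r), as a description of arrays that share their grouping.

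**Figure D1:**
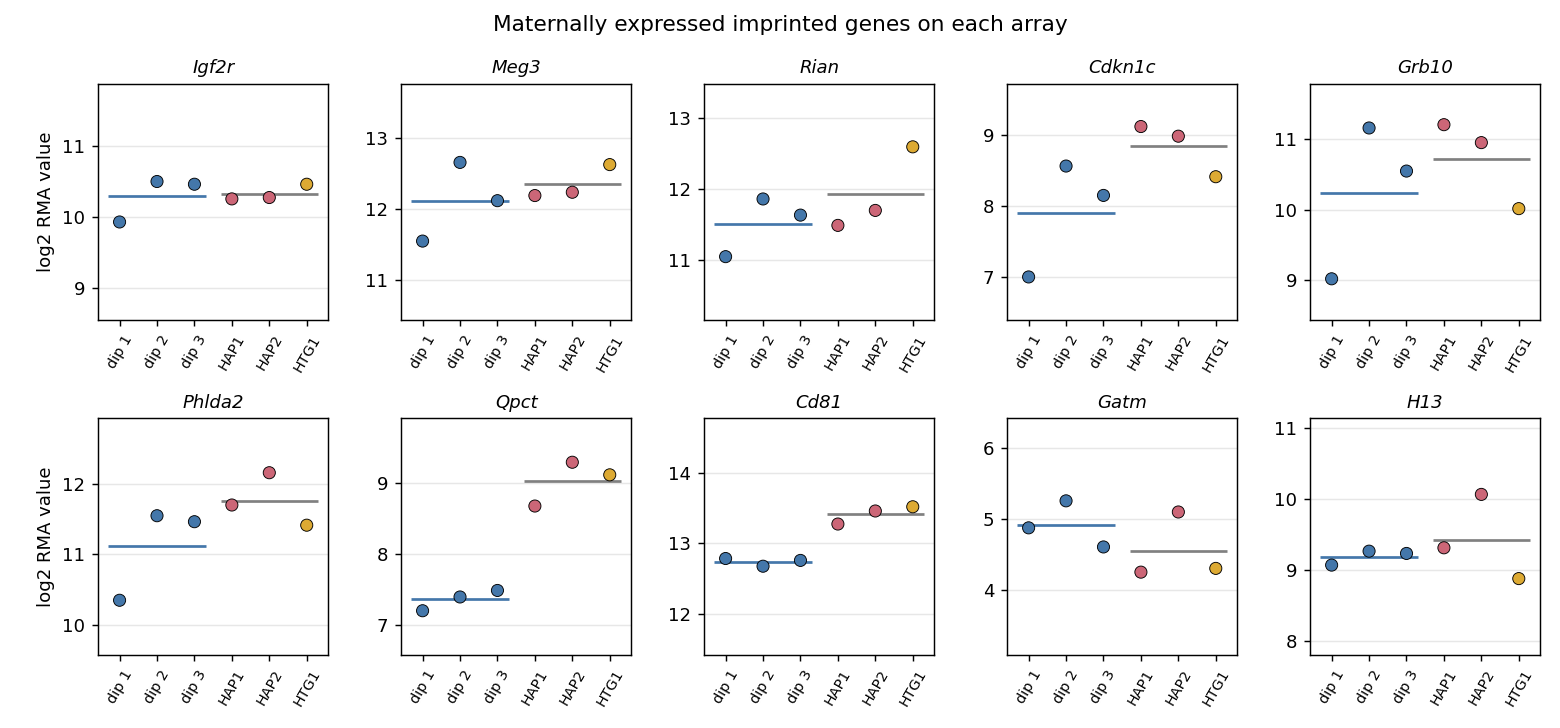
Log2 RMA values of the 10 members on each array, with every panel spanning the same number of log2 units. Points are diploid replicates 1 to 3 (blue), HAP1 and HAP2 (red) and HTG1 (yellow), and lines are the means of 3 arrays. Qpct and Cd81 are higher on all haploid arrays, and diploid replicate 1 is the lowest array for 7 members.

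The growth-restraining members Cdkn1c, Phlda2 and Grb10 shared a profile in which diploid replicate 1 was lowest. Cdkn1c encodes the cyclin-dependent kinase inhibitor p57, and read 7.0, 8.57 and 8.15 (log2) in diploid replicates 1 to 3 and 9.12, 8.99 and 8.42 in HAP1, HAP2 and HTG1. HAP1 and HAP2 lay above all diploid arrays, while HTG1 lay within their range. The haploid mean differed by 0.94 ± 0.40 (log2, SE, n = 3 in each group; limma adjusted p = 0.161), with a 95% interval from just below 0 to 1.87. Without diploid replicate 1 the difference was 0.48 (limma adjusted p = 0.246).

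Phlda2, a small pleckstrin-homology protein that limits placental growth, read 10.35, 11.55 and 11.46 (log2) in the diploid arrays and 11.70, 12.15 and 11.41 in HAP1, HAP2 and HTG1. HAP1 and HAP2 were the highest arrays, and HTG1 lay below diploid replicates 2 and 3. The difference of 0.63 ± 0.34 (log2, SE, limma adjusted p = 0.253) became 0.25 without diploid replicate 1 (0.485).

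Grb10, an adaptor that dampens signalling from the insulin and IGF1 receptors, had the widest diploid spread of the members, at 9.02, 11.15 and 10.54 (log2). HAP1, HAP2 and HTG1 stood at 11.20, 10.94 and 10.01, so HAP2 and HTG1 fell inside the diploid range and HAP1 just above it. The mean difference was 0.48 ± 0.55 (log2, SE, limma adjusted p = 0.594) and turned to -0.13 without diploid replicate 1. Its other probe sets were dimmer, with means of 6.50 and 6.36, and there diploid replicate 1 was not below both other diploid arrays. Grb10 lies on chromosome 11, whose genes above the median level were shifted by -0.29 (log2) in the haploid lines. HTG1 was below HAP1 and HAP2 in all 3 Grb10 probe sets.

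Seen across members, diploid replicate 1 gave the lowest diploid value for 8 of 10 members and the lowest of all 6 arrays for 7 of 10. Among all genes these shares were 33.9% and 15.4%. Its gap to the mean of diploid replicates 2 and 3 was -1.82 (log2) for Grb10, -1.36 for Cdkn1c, -1.15 for Phlda2, -0.84 for Meg3, -0.70 for Rian and -0.55 for Igf2r, against 0.07 for Cd81. Diploid replicate 1 also had the highest summed fibroblast marker level, with the collagen Col3a1 at 8.0 against 5.17 and 4.90 in the other diploid arrays. Not every marker followed. Diploid replicate 1 was the lowest diploid array for 1 of the 13 measured, the collagen Col1a1 (7.63 against 7.75 and 7.74). The collagen Col5a1 read 8.17, 8.25 and 7.89 in diploid replicates 1 to 3. The part of this marker level in the members' values was not tested. Diploid replicate 1 also stood apart on chromosome 6, where genes above the median level were shifted by 0.29 (log2) against -0.11 and -0.095 in diploid replicates 2 and 3. No member lies there, but Pon3, Dppa3, Nanog and Mest do. So does the fibroblast marker Col1a2, at 9.34, 8.41 and 8.38 in diploid replicates 1 to 3. Nothing in the labels sets diploid replicate 1 apart from replicate 2, and this gap was noticed in the data, so it has no test.

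Igf2r encodes the receptor that clears the growth factor Igf2 to the lysosome. Its brightest probe set read 9.93, 10.50 and 10.46 (log2) in the diploid arrays and 10.26, 10.28 and 10.46 in HAP1, HAP2 and HTG1. The haploid values lay inside the diploid range, with a difference of 0.03 ± 0.17 (log2, SE, limma adjusted p = 0.914) and a 95% interval from -0.36 to 0.43. The second Igf2r probe set differed. It read 8.58, 9.23 and 9.13 in the diploid arrays and 9.45, 9.64 and 9.98 in the haploid lines, so all haploid values were above all diploid ones. There the difference was 0.71 (log2), and it did not pass among 45037 probe sets tested on their own (limma adjusted p = 0.0740), where 11.3% passed.

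Meg3 is a noncoding RNA linked to growth arrest, and its locus is one whose silencing is known to vary between ES cell lines. The brightest Meg3 probe set read 11.55, 12.66 and 12.12 (log2) in the diploid arrays and 12.19, 12.23 and 12.63 in HAP1, HAP2 and HTG1. HTG1 was close to the high diploid replicate 2, and HAP1 and HAP2 sat near diploid replicate 3. The haploid mean differed by 0.24 ± 0.28 (log2, SE, limma adjusted p = 0.584), and by -0.037 without diploid replicate 1.

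Among the 11 Meg3 probe sets 6 had a positive and 5 a negative difference, from -0.78 to 0.68 (log2), and none passed. The highest was that of 1426758_s_at, which read 10.21, 11.33 and 10.77 in the diploid arrays and 11.24, 11.33 and 11.77 in the haploid lines. The lowest was that of 1436713_s_at, at 8.14, 8.95 and 8.30 against 7.53, 7.72 and 7.80, where every haploid line was below every diploid array (limma adjusted p = 0.0585). The bright probe set 1452905_at also went down, by 0.26, with HAP1 and HAP2 at 10.80 and 10.83 and HTG1 at 11.67. A direction for Meg3 in haploid against diploid lines therefore depends on the probe set. Within the haploid lines the probe sets were closer to each other, since HTG1 was above both HAP1 and HAP2 in 9 of 11.

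Rian, a noncoding RNA that hosts small nucleolar RNAs downstream of Meg3, had its highest values in HTG1. The brightest probe set read 11.05, 11.86 and 11.64 (log2) in the diploid arrays, 11.49 and 11.70 in HAP1 and HAP2, and 12.60 in HTG1. HAP1 and HAP2 lay within the diploid range and HTG1 was above all other arrays. HTG1 exceeded the diploid mean by 1.08 ± 0.31 (log2, SE, limma adjusted p = 0.0860) and HAP1 and HAP2 by 1.0 ± 0.33 (0.417), and neither passed. Without diploid replicate 1 the first difference was 0.85, with a limma adjusted p of 0.0468. A second bright Rian probe set gave 9.86, 10.63 and 10.38 in the diploid arrays, 10.38 and 10.62 in HAP1 and HAP2 and 11.32 in HTG1. The dimmest of the 4, 1428055_at, stood at 5.95, 7.05 and 6.58 in the diploid arrays and at 5.91 to 5.94 in the haploid lines, with no rise in HTG1.

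**Figure D2:**
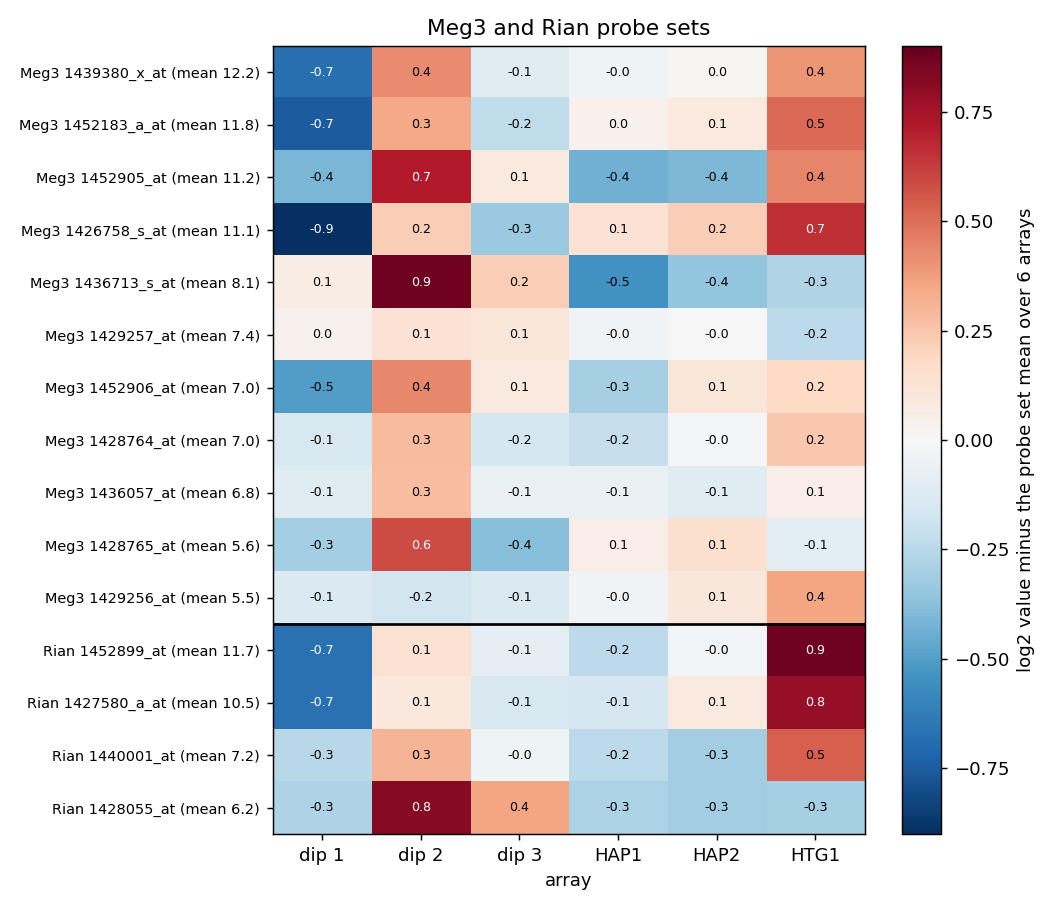
Log2 value of each Meg3 (11 rows) and Rian (4 rows) probe set on each array, minus that probe set's mean over the 6 arrays; row labels give that mean. HTG1 is above HAP1 and HAP2 in 9 Meg3 and 3 Rian rows, while the sign of the haploid minus diploid difference varies between rows.

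Neighbours of Meg3 and Rian were measured for 5 of 8 listed genes, none of which passed in haploid against diploid lines. Mirg, a microRNA host RNA made from the same allele farther along the locus, also had its lowest value in diploid replicate 1 and its highest in HTG1, at 7.63, 8.99 and 8.64 (log2) in the diploid arrays, 8.78 and 8.77 in HAP1 and HAP2, and 9.97 in HTG1. Its HTG1 minus HAP difference of 1.20 did not pass (limma adjusted p = 0.558). Dlk1, the paternally expressed gene of the locus, was dim on all arrays, from 5.61 to 6.0, and differed by 0.027 (limma adjusted p = 0.907).

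H13 encodes a signal peptide peptidase, an intramembrane protease. Its transcripts from the paternal allele are known to end early, upstream of or near the retrogene Mcts2, which lies inside H13 and is expressed from the paternal allele. H13 read 9.07, 9.26 and 9.23 (log2) in the diploid arrays and 9.31, 10.06 and 8.87 in HAP1, HAP2 and HTG1. The diploid arrays were tight, with an SD of 0.11, while the haploid lines spread over 1.19, with HAP2 highest and HTG1 lowest. The group difference was 0.23 ± 0.28 (log2, SE, limma adjusted p = 0.611), and it turned to -0.094 without HAP2 and to -0.020 when its probe sets were averaged. HTG1 minus HAP was -0.81 ± 0.30 (limma adjusted p = 0.496). The 5 other H13 probe sets were dim, with means of 4.60 to 6.16, and none passed.

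Mcts2 had the opposite order in the haploid lines. It read 10.83, 10.91 and 10.96 (log2) in the diploid arrays and 10.14, 9.02 and 10.94 in HAP1, HAP2 and HTG1. HTG1 thus stood at the diploid level, and HAP2, the line with most H13, had the lowest value. Mcts2 was lower in HAP1 and HAP2 than in diploid arrays, with a limma adjusted p of 0.0449 that was 0.0543 to 0.148 when a diploid replicate or HAP2 was omitted. Its sequence is close to that of its X-linked parent gene, so the probes may read both. The pair is 1 member and 1 neighbour over 3 haploid lines, which allows no test of their relation.

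At the locus of Cdkn1c, Phlda2 and Cd81 the paternally made Kcnq1ot1 read 7.50, 7.79 and 7.20 (log2) in the diploid arrays and 7.01, 5.79 and 7.64 in HAP1, HAP2 and HTG1. HAP2 was lowest in Kcnq1ot1 and highest in Phlda2, and HTG1 was within the diploid range of both. The other 2 members of the locus did not share this order. Cdkn1c was highest in HAP1 (9.12, against 8.99 in HAP2) and Cd81 in HTG1 (13.52, against 13.46 in HAP2). Kcnq1ot1 differed by -0.69 (log2) between haploid and diploid lines and did not pass (limma adjusted p = 0.324). Of 11 measured neighbours none passed between haploid and diploid lines. Tnfrsf22, a decoy death receptor, read 8.44 and 8.40 in HAP1 and HAP2 and 7.07 in HTG1, and the transporter Slc22a18 read 9.09, 9.32 and 8.67. Slc22a18 passed in HAP1 and HAP2 against diploid arrays (limma adjusted p = 0.0360), but this call was not tried with single arrays omitted. Both thereby had HTG1 below HAP1 and HAP2, as did Cdkn1c and Phlda2, but not Cd81, and none of these differences between the haploid lines passed. The limma adjusted p of HTG1 against HAP1 and HAP2 was 0.246 for Tnfrsf22, 0.871 for Cdkn1c and 0.890 for Phlda2.

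Airn, the noncoding RNA of the Igf2r locus, was dim and read 6.60 to 6.63 (log2) in the diploid arrays and 6.20 to 6.32 in the haploid lines. Its difference of -0.34 ± 0.09 (SE) passed with a limma adjusted p of 0.0423, but not without any one array (0.0696 to 0.132), nor when its probe sets were averaged (-0.10, 0.394). The other 5 measured neighbours of Igf2r did not pass.

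**Figure D3:**
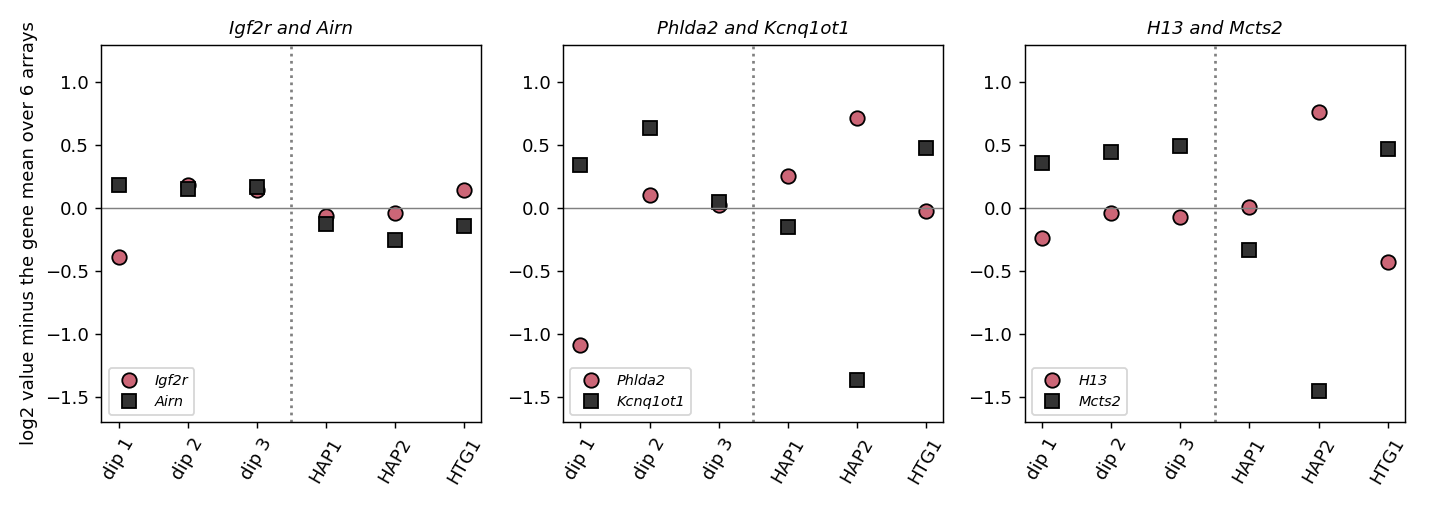
Log2 value minus the gene's mean over 6 arrays for a maternally expressed member (red circles) and a paternally expressed noncoding RNA or retrogene of its locus (dark squares), on each array. In HAP2 both Kcnq1ot1 and Mcts2 are at their lowest while Phlda2 and H13 are at their highest. Cdkn1c and Cd81, of the same locus as Phlda2 and not drawn here, are highest in HAP1 and HTG1.

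Near Grb10, the decarboxylase gene Ddc, paternally expressed in heart, read 10.96, 10.40 and 10.55 (log2) in the diploid arrays and 9.91, 9.14 and 9.26 in the haploid lines. It fell by 1.19 (limma adjusted p = 0.0191). That p was 0.0503 to 0.0685 without diploid replicate 3, HAP2 or HTG1, and the difference was -0.61 (0.0506) when the probe sets of Ddc were averaged. Fignl1, a helicase-like repair factor, was lower, at -0.54 ± 0.12 (0.0266), and its difference was -0.25 (0.179) with the shift of chromosome 11 subtracted and -0.16 (0.381) when its probe sets were averaged. Fignl1 also missed the threshold when diploid replicate 2 (0.0896), diploid replicate 3 (0.0957) or HAP2 (0.0578) was omitted. Of the 4 measured neighbours of Grb10, 3 had a negative and 1 a positive difference.

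Around Qpct, 3 of 4 listed neighbours were measured and all 3 passed. The kinase gene Prkd3 (0.77) and the Cdc42 effector gene Cdc42ep3 (1.13, log2) were higher in the haploid lines, while the cytochrome Cyp1b1 was lower, at -1.68 ± 0.16 (SE, limma adjusted p = 0.00232). Without single arrays the limma adjusted p was 0.0704 to 0.128 for Prkd3, for all arrays but diploid replicate 1, and 0.0505 to 0.0721 for Cdc42ep3, without diploid replicate 3 or any haploid line. When its probe sets were averaged Prkd3 differed by 0.28 (0.130). Near H13, the differentiation inhibitor Id1 was lower, at -1.79 ± 0.27 in the haploid lines (limma adjusted p = 0.00794). These values show that positive and negative differences lay side by side around the members.

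**Figure D4:**
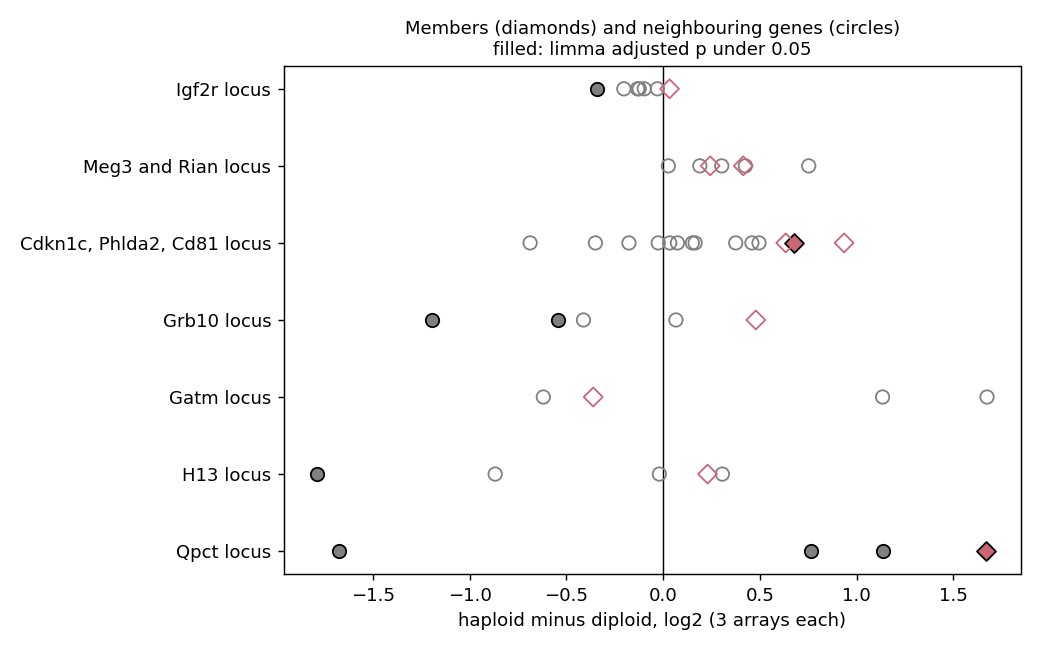
Haploid minus diploid difference (log2, 3 arrays per group) of the 10 members (diamonds) and of the measured listed neighbours at each locus (circles); filled symbols passed a limma adjusted p of 0.05. Filled diamonds are Qpct and Cd81; Airn, 2 neighbours of Grb10, Id1 near H13 and 3 neighbours of Qpct are filled circles.

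Gatm, the amidinotransferase that begins creatine synthesis, was dim on every array. Its log2 values were 4.87, 5.25 and 4.60 in the diploid arrays and 4.25, 5.09 and 4.30 in HAP1, HAP2 and HTG1, and its diploid and haploid values overlapped. The haploid mean of 4.55 lay below 4.80, the smallest lower quartile of any array, so differences of Gatm cannot be read at this level. The fit gave -0.36 ± 0.26 (log2, SE, limma adjusted p = 0.390). Of its 3 measured neighbours none passed. Slc30a4 and Spata5l1 were higher in all haploid lines than in any diploid array without passing (limma adjusted p = 0.0917 and 0.170), and B2m, the light chain of class I histocompatibility molecules, was lower in all of them (-0.62, 0.0629).

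By line, Qpct and Cd81 were the 2 members that passed both in HAP1 and HAP2 against diploid arrays, where limma called 11% of all genes (6.11% higher, 4.87% lower), and in HTG1 against diploid arrays, where it called 8.33% (4.87% higher, 3.46% lower). The single HTG1 array was assumed to vary like the others. In the direct comparison of HTG1 with HAP1 and HAP2 no member passed, with 0.374% of all genes called (0.242% higher, 0.132% lower). The members with the lowest limma adjusted p there were Rian (1.0, log2, adjusted p = 0.417) and H13 (-0.81, 0.496). For Igf2r, Qpct and Cd81 the 95% intervals of HTG1 minus HAP ran from -0.42 to 0.82, from -0.52 to 0.78 and from -0.21 to 0.51. Differences within these bounds are not excluded. The intervals of Cdkn1c (-2.04 to 0.76) and Grb10 (-2.94 to 0.82) were wider. HAP1 and HAP2 themselves differed by 0.85 for Gatm, 0.75 for H13, 0.62 for Qpct and 0.46 for Phlda2 (HAP2 minus HAP1, log2), and by at most 0.25 in size for the other 6 members.

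**Figure D5:**
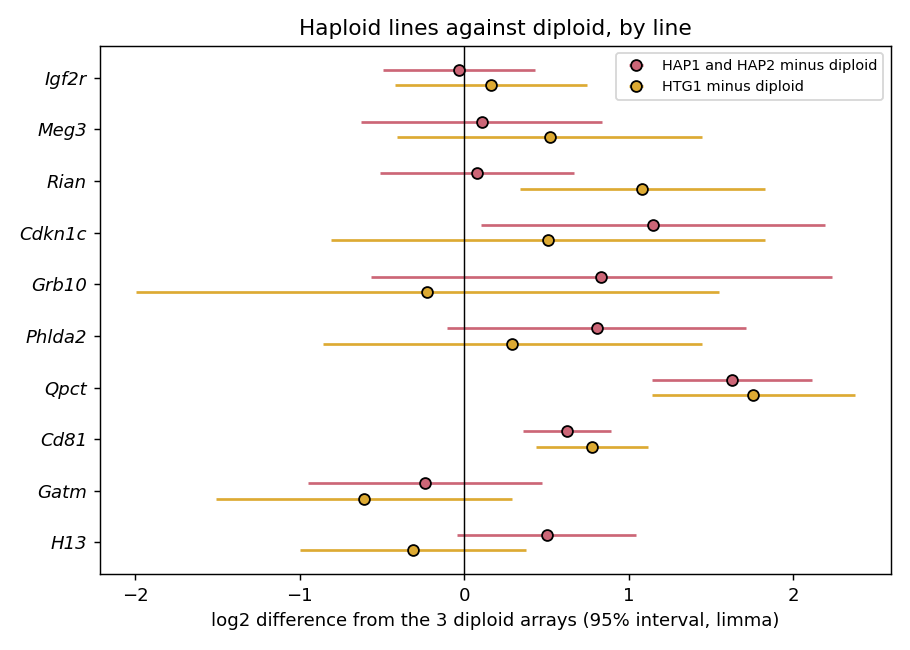
Log2 difference from the mean of the 3 diploid arrays for HAP1 and HAP2 (red) and for HTG1 (yellow), with 95% intervals from limma. Both intervals lie above 0 for Qpct and Cd81, that of HTG1 does so for Rian and that of HAP1 and HAP2 for Cdkn1c, neither of which passed after adjustment over all genes.

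Of 33 other maternally expressed imprinted genes that were measured, of 39 listed, 2 passed in haploid against diploid lines, both lower, and their median difference was -0.025 (log2). They were Commd1, a copper metabolism gene on chromosome 11 (-1.07, limma adjusted p = 0.00536), and the paraoxonase Pon3 (-1.07, 0.0227). Pon3 missed the threshold when diploid replicate 3 (limma adjusted p = 0.0808) or HAP2 (0.0566) was omitted. Of 24 measured paternally expressed genes 1 passed as higher and 4 as lower, with a median of -0.22. Among all genes 7.92% passed as higher and 6.96% as lower. Besides Airn and Ddc, the phosphatase gene Inpp5f was different by -2.66 ± 0.11 (log2, SE, limma adjusted p = 0.000362) and Nnat, which encodes a small membrane protein, by -0.89 ± 0.12 (0.00553). Peg12, dim with a mean of 5.80, was higher by 0.62 ± 0.15 (limma adjusted p = 0.0392). By line it did not pass, with 0.0942 in HAP1 and HAP2 against diploid arrays. The calls of Inpp5f, Nnat and Peg12 were not tried with single arrays omitted or with other processing. Diploid replicate 1 was the lowest of the 6 arrays for 6 of the 33 and 3 of the 24.

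Partners and relatives of the members were taken from a list of 26 genes, all measured. In haploid against diploid lines 3 passed as higher and 1 as lower, with a median difference of 0.14 (log2). Limma called 14.9% of all genes there, so the count is close to that of all genes. The creatine transporter Slc6a8, which is X-linked, was higher by 1.81 ± 0.14 (SE, limma adjusted p = 0.00155), and genes above the median level on the X chromosome were shifted by 0.75. The insulin receptor substrate Irs2 (1.16) and Phlda3 (0.61), a relative of Phlda2, were higher, and the Grb10 relative Grb14 was lower (-0.91). The limma adjusted p of Irs2 was 0.0548 to 0.131 without any one array other than diploid replicate 2, and that of Grb14 was 0.0765 or 0.0574 when diploid replicate 3 or HAP2 was omitted. Igf2, the ligand of Igf2r and itself paternally expressed, read 7.40, 9.46 and 9.04 in the diploid arrays and 7.37 to 7.76 in the haploid lines. Diploid replicate 1 thus stood with the haploid lines, and the difference of -1.08 ± 0.49 (log2, SE) did not pass (limma adjusted p = 0.183).

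Of 13 genes that keep or set methylation imprints 1 passed as higher and 3 as lower in haploid against diploid lines, with a median of -0.18 (log2). Limma called 14.9% of all genes, and 26.5% when only genes above the median level were kept. All 13 lay above that level, so the count is not read as particular to these genes. The methyltransferase Dnmt3a fell by 1.51 (limma adjusted p = 0.00319), the insulator protein gene Ctcf by 0.81 (0.0100) and Uhrf1, which brings Dnmt1 to replicated DNA, by 0.51 (0.0331). Dppa3, which protects maternal methylation in the zygote, was higher by 2.67 (0.0116). Ctcf had a difference of -0.46 (0.0601) with the shift of its chromosome subtracted and a p of 0.0501 without diploid replicate 3, Uhrf1 had 0.0589 to 0.107 without any one array other than HAP1, and Dppa3 had 0.0503 and 0.0572 without diploid replicate 2 and 3. Zfp57 (0.16) and Trim28 (-0.079), which bind methylated control regions, did not pass.

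The genes whose profile over the 6 arrays was most like each member's, among genes above the median level, lay on another chromosome for 9 of 10 members. For Qpct it was Fam160a2 and for Cd81 the X-linked Zfp449 (both Pearson's r 0.998), for Meg3 Atp11a (0.996), for Igf2r Setd1b and for Phlda2 Prickle2 (both 0.993). For Cdkn1c it was Thrap3 (0.992), for Rian Hira and for H13 Tmem259 (both 0.991), for Grb10 Zdhhc5 (0.989) and for Gatm Kif18a (0.969), the last on the same chromosome. With 6 arrays and this many genes such values are a description.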

How the data were processed

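RNA of 6 samples was hybridised to 1 array each. The deposited values are on the log2 scale and were made by the authors with RMA, per the submitters' processing notes. The software and its settings are not given in the sources used here. RMA in general use sets all arrays to one distribution, so values are relative to the bulk of genes and changes of dim genes are compressed. Of 45101 probe sets, 64 controls were left out. Platform annotation gave 34945 probe sets 1 symbol, 932 several and 9160 none; 34741 matched RefSeq (GRCm38.p6) by Entrez number, for chromosomes only.

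Groups came from the labels. Differences were tested with limma 3.58.1 in R 4.3.3 (lmFit, eBayes, two-sided, no covariate, no filter), adjusted by Benjamini-Hochberg over 18193 genes, or over 45037 probe sets where probe sets are tested on their own. One fit had 2 groups; the line comparisons came from a fit with 3 (diploid, HAP1 and HAP2, HTG1). SE is the moderated error. Every adjusted p is limma's. The members, lists, tests and rule for named genes (all members; up to 4 passing genes of each list, or the 2 brightest where none passed; fixed neighbours; the most alike gene of each member) were chosen with earlier results of these data known. Genes named outside it (Slc22a18, Tnfrsf22, Slc30a4, Spata5l1, Zfp57, Trim28, Col3a1, Mest, Peg3 and Impact) were chosen after their values were seen or as examples. H19, which the rule names, was not analysed here. On simulated data of 18193 genes, the haploid against diploid fit found 71% of genes changed by 1 (log2) and 97% of those changed by 2. The shares were 23% and 82% for HTG1 against HAP1 and HAP2. The simulation changed a small part of the genes and drew independent normal noise with each gene's own spread. Of the genes called in haploid against diploid, 5.62% had not been changed. The data hold more called genes, and chromosome shifts that the simulation lacks, so the shares found may differ on the real arrays.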

Additional observations from a re-analysis of the deposited data

Results flagged for a closer look

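No member or other maternally expressed gene differed between HTG1 and HAP1 and HAP2 by the test of that difference, but 3 paternally expressed genes did. Peg3, a zinc finger gene, was higher in HTG1 by 3.98 ± 0.32 (log2, SE, limma adjusted p = 0.00872), at 11.43 against 7.80 and 7.10, with diploid values of 9.36 to 9.78. Mest, a hydrolase-like gene, was higher by 3.42 ± 0.28 (limma adjusted p = 0.00872), at 10.15 against 6.88 and 6.58, with diploid values of 10.85 to 11.46. Impact, a translation regulator, was higher by 2.15 ± 0.27 (limma adjusted p = 0.0491), at 11.59 against 9.74 and 9.14, with diploid values of 11.41 to 11.74. Impact missed the threshold when any diploid replicate was omitted (0.0778 to 0.182), after quantile normalization (0.0635) and when dim genes were dropped (0.0709), and differed by 0.76 when its probe sets were averaged (0.180). HTG1 is a single array in these tests, and it differs from HAP1 and HAP2 in strain label, transgene and passage together. Groups of 3 arrays were not searched for outlying samples.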

How the results depend on the processing

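Qpct and Cd81 passed in haploid against diploid lines under every alternative tried: a further quantile normalization, alignment of array medians, removal of dim genes, averaging of probe sets, removal of probe sets whose names end in _s_at or _x_at, trend and robust settings, subtraction of chromosome shifts, and omission of each array. Qpct and Cd81 each have 1 probe set, whose name ends in neither _s_at nor _x_at. Averaging of probe sets and that removal therefore left their values unchanged and could not test them. Alternatives for genes that are not members were added after seeing the data. With single arrays omitted, genes called ranged from 970 to 2428 (haploid against diploid), 389 to 2253 (HAP1 and HAP2 against diploid), 251 to 1675 (HTG1 against diploid) and 25 to 123 (HTG1 against HAP1 and HAP2), against 2707, 1997, 1516 and 68 on all arrays, and were fewest without diploid replicate 3. Members called ranged from 2 to 2, 1 to 3, 0 to 3 and 0 to 0. The added member was H13 in HAP1 and HAP2 without HAP1 (0.88, limma adjusted p = 0.0338) and Rian in HTG1 without diploid replicate 1. With dim genes removed 26 genes passed in HTG1 against HAP1 and HAP2.

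Signs turned for members that had not passed, and for Qpct between the haploid lines; the cause was not tested. For haploid against diploid, Igf2r was -0.0072 after quantile normalization and -0.053 with chromosome shifts subtracted, and H13 was -0.020 with probe sets averaged. With single arrays omitted the differences ran from -0.15 to 0.13 for Igf2r, -0.037 to 0.52 for Meg3, -0.13 to 0.94 for Grb10 and -0.094 to 0.50 for H13. For HAP1 and HAP2 against diploid, averaging gave 0.26 for Igf2r, -0.056 for Meg3 and -0.15 for Rian, and omission of single arrays -0.22 to 0.069 for Igf2r, -0.17 to 0.38 for Meg3, -0.15 to 0.25 for Rian and -0.66 to 0.19 for Gatm. For HTG1 against diploid, Grb10 was 0.076 with chromosome shifts subtracted, and omission gave -0.019 to 0.27 for Igf2r, -0.83 to 0.23 for Grb10 and -0.091 to 0.51 for Phlda2. For HTG1 against HAP1 and HAP2 it gave -0.18 to 0.44 for Qpct and -0.80 to 0.053 for Gatm. No paired analysis was possible because the haploid titles carry line names and no replicate numbers that match those of the diploid arrays. Omission of HAP1 or HAP2 leaves 1 array there, assumed to vary like the others.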
